A study of Mus musculus with 6 samples.

Results

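Fibroblast growth factor (FGF) receptors and ligands were examined in pRb-expressing and pRb-deficient osteoblasts. They were 10 genes chosen by name: the receptors Fgfr1, Fgfr2, Fgfr3 and Fgfrl1, the ligands Fgf2, Fgf7, Fgf9, Fgf10 and Fgf18, and the adaptor Frs2. Every probe set whose single annotated symbol is one of these names was used, which gave 17 probe sets for 9 genes among 18032 genes with a probe set. No probe set had Frs2 as its single symbol, so this gene was not analysed here. The signals of 2 receptors, Fgfr2 and Fgfr3, were lower in pRb-deficient osteoblasts, by 5.62-fold and 9.85-fold, whereas Fgfr1, Fgfrl1 and the 5 ligand genes did not pass the test on their brightest probe sets.

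RNA was measured in 3 cultures labelled Wild type (pRb-expressing osteoblasts) and 3 cultures labelled Rb Knockout (pRb-deficient osteoblasts), with 1 Affymetrix Mouse Genome array per culture. All were MC3T3 cells, which here means calvarial osteoblasts of embryonic day 18.5 mice that were immortalized by serial passage under the 3T3 protocol. The animals descended from a cross of flox19-RB1 mice, which were kept in a C57BL/6 background and whose Rb1 gene can be excised by Cre recombinase, with mice carrying a Col1a1-Cre transgene, in which a fragment of the collagen promoter active in osteoblasts drives Cre. The study used 2.3- and 3.6-Col1a1-Cre mice, named for the promoter fragment, and neither which of them was carried by the cell donors nor whether the control littermates carried Cre is given in the sources used here. The cultures are called biological replicates, but it is not said whether they came from separate animals or lines. The p-values therefore measure only the spread between these cultures, and pRb status and line of origin cannot be told apart.

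FGFs are secreted proteins that bind, together with heparan sulfate, to receptor tyrosine kinases on the cell surface. The activated receptors phosphorylate the adaptor FRS2, which passes the signal to RAS and the kinase ERK, and ERK in turn induces feedback inhibitors such as Sprouty proteins. In the skull, FGF signaling controls the balance between growth and differentiation of osteoblast precursors, and mutations that activate FGFR2 or FGFR3 cause premature fusion of the calvarial sutures.

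To show the DNA next to the starts of these genes, the 250 bases before the annotated start are given for the 2 receptor genes whose signal fell and, for comparison, for Fgfrl1, whose signal did not pass the test. They were taken from RefSeq on GRCm38.p6, are read 5′ to 3′ in the direction of the gene, and carry CG dinucleotides in capitals. Fgfr2 lies on the minus strand of chromosome 7 and its window is chr7:130266809-130267058. Fgfr3 and Fgfrl1 lie on the plus strand of chromosome 5, with windows at chr5:33721474-33721723 and chr5:108693979-108694228.
Fgfr2: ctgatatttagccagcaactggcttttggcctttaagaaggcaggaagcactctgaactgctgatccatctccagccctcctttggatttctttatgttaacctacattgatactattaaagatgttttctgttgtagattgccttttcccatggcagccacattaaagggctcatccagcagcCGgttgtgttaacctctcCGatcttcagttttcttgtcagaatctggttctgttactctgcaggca
Fgfr3: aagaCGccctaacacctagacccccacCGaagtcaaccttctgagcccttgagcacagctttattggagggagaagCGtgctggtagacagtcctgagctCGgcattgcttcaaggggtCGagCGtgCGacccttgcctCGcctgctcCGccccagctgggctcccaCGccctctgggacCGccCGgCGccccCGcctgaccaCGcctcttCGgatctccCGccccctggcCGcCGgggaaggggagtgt
Fgfrl1: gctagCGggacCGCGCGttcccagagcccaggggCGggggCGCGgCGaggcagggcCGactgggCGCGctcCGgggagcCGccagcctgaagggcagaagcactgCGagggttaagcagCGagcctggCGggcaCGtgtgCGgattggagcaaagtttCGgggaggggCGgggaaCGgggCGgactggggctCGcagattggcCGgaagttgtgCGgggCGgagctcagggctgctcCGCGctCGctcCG
The Fgfr2 window held 2 CG dinucleotides and 44.0% G and C, the Fgfr3 window 19 and 66.8%, and the Fgfrl1 window 30 and 73.6%. Over all 32851 RefSeq promoters of this length the medians were 6 CG dinucleotides and 52.4% G and C, and 29.0% of them had no more CG dinucleotides than Fgfr2 whereas 19.7% had at least as many as the Fgfr3 window shown. The 2 receptor genes whose signals fell thus had start regions of unlike CG content. A second annotated start of Fgfr3 had 24 CG dinucleotides. In windows of 300 bases around the start, which were available for 9 member genes with 10 starts and not for Fgfr1, the E2F letters TTTCCCGC, TTTCGCGC, TTTGCCGC and TTTGGCGC were searched on both strands because pRb acts through E2F transcription factors. They were found in 0 of the 10 member windows and in 2.26% of all promoters. The letters TGTGGT, bound by RUNX factors, were found in 1 member window, that of Frs2, and in 16.8% of all promoters.

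The 6 arrays were scaled alike, with median signals of 107.7 to 119.5, and signals at or below 32 were set to 32 before log2 transformation. Within a group, arrays correlated at 0.974 to 0.984, and between groups at 0.912 to 0.917 (Pearson's r across probe sets, as a description). Rb1, the gene of pRb itself, gave signals of 1123.7, 1118.6 and 1105.9 in pRb-expressing and 143.1, 127.1 and 123.5 in pRb-deficient osteoblasts. Whether this probe set covers the excised exon was not examined here. Of 8 osteoblast markers tested, 7 were lower in pRb-deficient osteoblasts, with Phex the exception, and their summed signal was 44556 to 50850 in pRb-expressing and 18032 to 28083 in pRb-deficient osteoblasts. Most of this sum came from the collagen genes Col1a1, with group means of 18818 and 10945, and Col1a2, with 18959 and 11299. The markers Ibsp and Dmp1 were at or below the floor in the pRb-deficient group mean.

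Of the 9 member genes, each represented by its brightest probe set, 2 were lower and 0 were higher in pRb-deficient osteoblasts at an adjusted p under 0.05 from limma, and 7 did not pass. At an unadjusted p under 0.05 the same 2 genes were lower and 0 were higher. Over the 16177 genes tested, 23.5% were lower and 18.6% were higher. Over probe sets, 5 of the 16 member probe sets tested were lower and 1 was higher, against 18.8% lower and 16.2% higher of all 38427 probe sets tested. The groups did not overlap in 6 of the 16 member probe sets, against 48.0% of all probe sets tested. By genes, the share that fell was thus near that of the whole array. Ordered from the lowest log2 fold change, Fgfr3 stood at place 91 and Fgfr2 at place 209 of 16177 genes. A negative log2 fold change means a lower signal in pRb-deficient osteoblasts throughout, and the median over the 9 member genes was 0.16, against −0.09 over all genes tested.

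**Figure D1:**
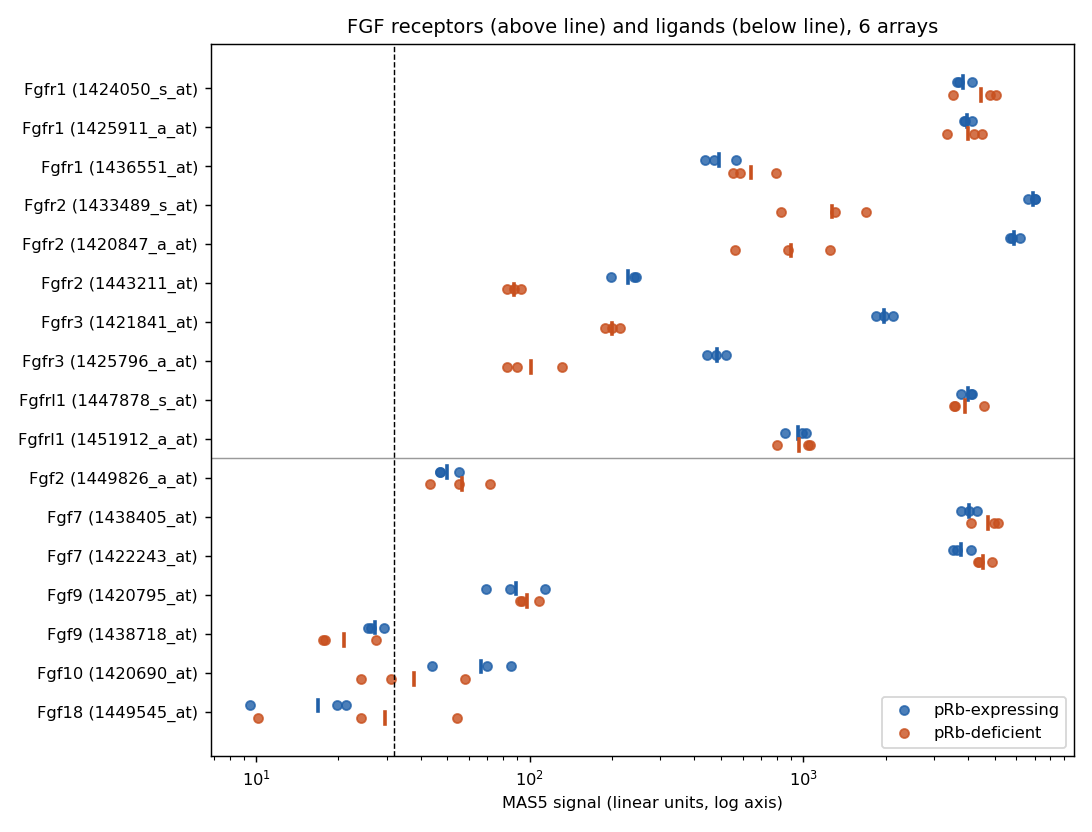
MAS5 signal (linear units on a log axis) of the 17 member probe sets on the 6 arrays, with 1 point per array, a bar at each group mean and a dashed line at the floor of 32. The groups lie apart for the probe sets of Fgfr2 and Fgfr3, with pRb-deficient osteoblasts lower, and overlap for those of Fgfr1 and Fgfrl1 and for all ligand probe sets except 1 of Fgf7.

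Fgfr3 encodes a receptor tyrosine kinase that restrains the growth of cartilage in long bones and is also expressed by osteoblasts. Its brightest probe set (1421841_at) gave signals of 1967.6, 1843.2 and 2123.6 in pRb-expressing and 213.1, 188.9 and 200.1 in pRb-deficient osteoblasts. The groups lay far apart, and the pRb-deficient cultures were close to one another. The group means were 1978 ± 140 and 201 ± 12.1 (SD, n = 3 each), and the log2 fold change was −3.30 (limma, SE 0.09, adjusted p = 2.66e-06). This is a 9.85-fold lower signal, with a 95% interval of 8.45-fold to 11.5-fold. The second probe set (1425796_a_at) gave 442.9, 481.7 and 523.1 in pRb-expressing and 82.7, 89.9 and 131.0 in pRb-deficient osteoblasts. It also separated the groups, with a log2 fold change of −2.28 (limma, SE 0.21, adjusted p = 0.000229).

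Fgfr2 encodes the receptor for FGF7, FGF10 and other ligands, depending on how its transcript is spliced, and is expressed by osteoblast precursors at the edges of the growing skull bones. Its brightest probe set (1433489_s_at) gave signals of 6633.1, 7040.7 and 7000.6 in pRb-expressing and 1699.8, 1305.1 and 829.2 in pRb-deficient osteoblasts. No pRb-deficient culture came near the pRb-expressing range, although the pRb-deficient cultures differed among themselves, with culture 1 highest and culture 3 lowest. The means were 6891 ± 225 and 1278 ± 436 (SD, n = 3 each), and the log2 fold change was −2.49 (limma, SE 0.24, adjusted p = 0.000285), a 5.62-fold lower signal with a 95% interval of 3.81-fold to 8.31-fold. A second probe set (1420847_a_at) gave 5675.2, 6172.5 and 5772.3 in pRb-expressing and 1256.2, 878.0 and 562.2 in pRb-deficient osteoblasts. It placed the 3 pRb-deficient cultures in the same order, and its log2 fold change was −2.78 (limma, SE 0.26, adjusted p = 0.000273). The third probe set (1443211_at) gave 244.4, 241.1 and 198.6 in pRb-expressing and 93.3, 87.4 and 82.4 in pRb-deficient osteoblasts, again without overlap, and its log2 fold change was −1.37 (limma, adjusted p = 0.00101). Because RNA of whole cultures was measured, fewer cells with the transcript and less transcript per cell cannot be told apart.

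The estimates of the change differed between probe sets of the same receptor. The third probe set of Fgfr2 fell by 1.12 less on the log2 scale than the brightest, and the second probe set of Fgfr3 by 1.02 less than its brightest. With 3 cultures against 3, an exact two-sided permutation test cannot give a p below 0.10. None of the 7 pairs of probe sets compared within member genes could therefore pass, so this test cannot decide whether they changed unequally. The pairs of Fgfr2 and Fgfr3 named above both had an exact permutation p of 0.1 (adjusted p = 0.233). Which transcripts each probe set detects was not examined.

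Fgfr1 encodes a receptor tyrosine kinase of the family that responds to FGF2, among other ligands. Its brightest probe set (1424050_s_at) gave signals of 4145.2, 3633.4 and 3703.0 in pRb-expressing and 4829.9, 5062.2 and 3511.9 in pRb-deficient osteoblasts. The groups overlapped, since pRb-deficient culture 3 had the lowest signal and the other 2 the highest. The log2 fold change was 0.21 (limma, 95% interval −0.13 to 0.55, adjusted p = 0.329). The other Fgfr1 probe sets overlapped as well, at log2 fold changes of 0.01 (95% interval −0.26 to 0.28) for 1425911_a_at and 0.39 (95% interval −0.01 to 0.78) for 1436551_at. Without pRb-deficient culture 3 the brightest probe set was higher at 0.37 (limma, adjusted p = 0.0144), as it was with array quality weights at 0.36, and its adjusted p ran up to 1 over the alternatives. A fall of the size seen in Fgfr2 or Fgfr3 lay outside the intervals of all 3 probe sets.

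Fgfrl1 encodes a receptor that binds FGFs but lacks the tyrosine kinase domain. Its brightest probe set (1447878_s_at) gave signals of 4151.2, 3784.3 and 4105.9 in pRb-expressing and 3568.6, 4586.0 and 3584.4 in pRb-deficient osteoblasts. The pRb-deficient cultures lay on both sides of the pRb-expressing ones, and the log2 fold change was −0.05 (limma, 95% interval −0.31 to 0.22, adjusted p = 0.791). The second probe set (1451912_a_at) had a log2 fold change of 0.01 (95% interval −0.30 to 0.32).

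To compare the receptors with each other, the difference between their log2 signals was taken on each array and tested between the groups, a comparison of 6 pairs chosen once values were known. The log2 fold change of Fgfr1 exceeded that of Fgfr2 by 2.70 and that of Fgfr3 by 3.51, and Fgfr3 changed by 0.81 more than Fgfr2. Each of these differences, like those of Fgfr2 and Fgfr3 from Fgfrl1, had the smallest p that the exact permutation test allows, 0.1. Adjusted over the 6 pairs, this p was 0.12. No pair could pass the threshold whatever its values, so this test cannot decide whether the receptors changed unequally. The 95% intervals from limma on the brightest probe sets were −0.13 to 0.55 for Fgfr1 and −0.31 to 0.22 for Fgfrl1. Those of Fgfr2, −3.05 to −1.93, and Fgfr3, −3.52 to −3.08, overlapped neither of them. Between Fgfr1 and Fgfrl1 the difference was 0.25 (p = 0.2, exact permutation test).

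**Figure D2:**
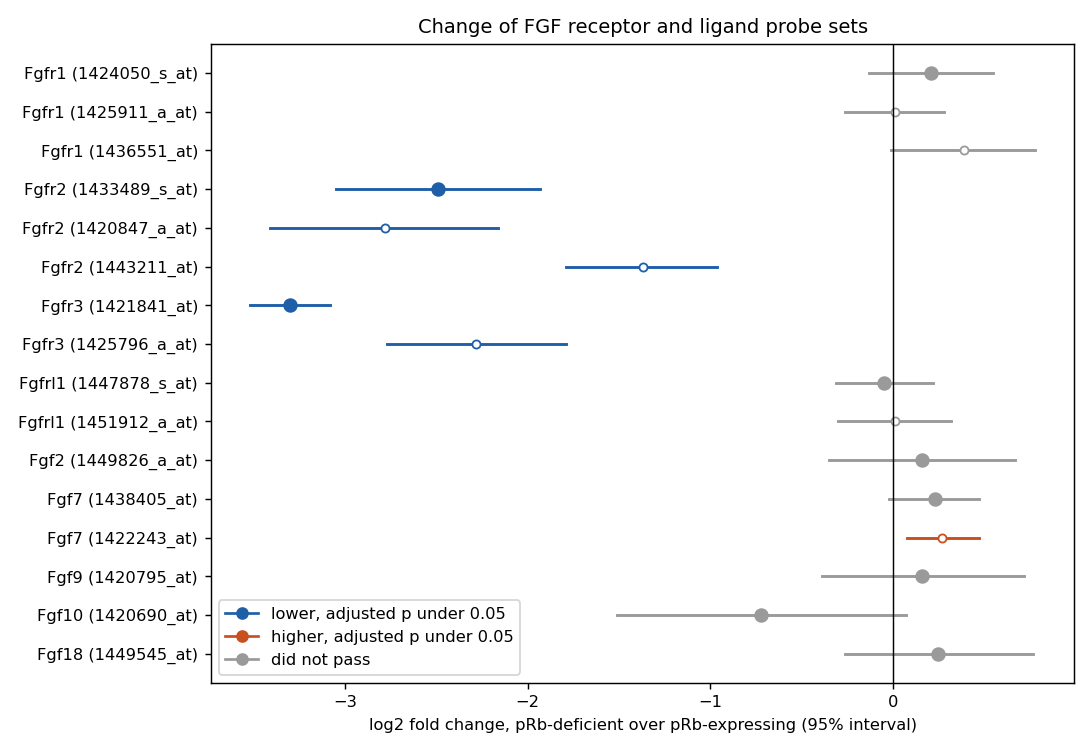
Log2 fold change (pRb-deficient over pRb-expressing, x axis) of the 16 member probe sets tested, with 95% intervals from limma. Filled points are the brightest probe set of a gene and open points the others. The 5 probe sets of Fgfr2 and Fgfr3 lie between −3.30 and −1.37, 1 of Fgf7 lies at 0.27, and the other 10, in grey, did not pass.

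Among the ligands, Fgf7 encodes keratinocyte growth factor, which mesenchymal cells secrete and which acts on FGFR2 of epithelial cells. Its brightest probe set (1438405_at) gave signals of 4309.3, 4020.5 and 3785.6 in pRb-expressing and 4101.2, 5130.9 and 4982.8 in pRb-deficient osteoblasts. The groups overlapped through pRb-deficient culture 1, and the log2 fold change was 0.23 (limma, 95% interval −0.02 to 0.47, adjusted p = 0.141). The second probe set (1422243_at) gave 4108.8, 3639.8 and 3534.0 in pRb-expressing and 4402.5, 4879.7 and 4352.8 in pRb-deficient osteoblasts. There the groups did not overlap, and the signal was 1.21-fold higher in pRb-deficient osteoblasts (limma, log2 fold change 0.27, 95% interval 0.08 to 0.47, adjusted p = 0.0417). This call was lost under 5 other settings and without pRb-expressing culture 2, pRb-expressing culture 3, pRb-deficient culture 1 or pRb-deficient culture 2. The brightest probe set passed at 0.33 without pRb-deficient culture 1 (limma, adjusted p = 0.0171), at 0.32 with array quality weights and at 0.55 with chromosome medians removed (adjusted p from 0.00684 to 1 over its alternatives).

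The other 4 ligand genes had signals of 113.4 or less on every array. Fgf2, a ligand stored in bone matrix, gave 46.9, 55.1 and 47.2 in pRb-expressing and 43.1, 71.6 and 55.1 in pRb-deficient osteoblasts, with a log2 fold change of 0.16 (95% interval −0.35 to 0.67). Fgf9 gave 84.5, 113.4 and 69.2 in pRb-expressing and 108.2, 93.9 and 91.9 in pRb-deficient osteoblasts on the probe set tested, with a log2 fold change of 0.16 (95% interval −0.39 to 0.72). The groups overlapped for both genes. With array quality weights Fgf2 was higher at 0.49 (limma, adjusted p = 0.0436, from there to 1 over its alternatives). The second probe set of Fgf9 gave signals of 17.5 to 29.3, below the floor on all 6 arrays, and was not tested.

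Fgf10, a ligand of FGFR2 that is needed for limb and lung buds, gave 43.8, 85.6 and 70.0 in pRb-expressing and 57.8, 31.2 and 24.2 in pRb-deficient osteoblasts. Of the pRb-deficient cultures, 2 were below the floor and the third lay within the pRb-expressing range. The log2 fold change was −0.72 (limma, 95% interval −1.51 to 0.07, adjusted p = 0.149), so at this signal neither no change nor a fall of more than 2-fold was outside the interval. Fgf10 passed as lower at −1 without pRb-deficient culture 1 (limma, adjusted p = 0.0485), at −0.87 with array quality weights and at −1.05 with chromosome medians removed (adjusted p from 0.0211 to 1 over its alternatives). The chromosome median of 0.33 was removed after flooring, which also lowered the 2 pRb-deficient cultures at the floor, so −1.05 holds this shift.

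Fgf18, a ligand that promotes osteoblast differentiation in the skull, gave 9.5, 19.8 and 21.4 in pRb-expressing and 24.2, 54.3 and 10.2 in pRb-deficient osteoblasts. Only pRb-deficient culture 2 was above the floor, and its log2 fold change of 0.25 (limma, adjusted p = 0.43) rests on that culture alone. Fgf18 passed at 0.68 with array quality weights and at 0.77 with chromosome medians removed (limma, adjusted p from 0.0179 to 1 over its alternatives). The chromosome median of −0.52 was removed after flooring, which also raised the 2 pRb-deficient cultures at the floor. The value of 0.77 therefore holds this shift and is no measured rise of that size.

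Many chromosomes had a median log2 fold change other than 0 in these cells, so each member was set beside its chromosome and its neighbours. The chromosome median, taken over genes whose mean signal was 200 or more, was 0.26 on chromosome 5, which holds Fgfr3 and Fgfrl1, and −0.33 on chromosome 7, which holds Fgfr2. With chromosome medians removed, the log2 fold change was −3.56 for Fgfr3 and −2.16 for Fgfr2, and both still passed. The 6 nearest tested genes, 3 on each side, had a median of −0.05 around Fgfr3 (from −0.30 to 0.75), and the nearest on each side, Tacc3 and Letm1, had 0.06 and 0.23. Around Fgfr2 all 6 neighbours were below 0, from −1.58 to −0.05 with a median of −0.48, and 3 of them passed as lower. The nearest on each side of Fgfr2 were Gm33248 at −0.05 and Ate1 at −0.72. Fgfr3 thus fell further than each of its neighbours, of which 1 passed as lower, at −0.30, and 1 as higher, at 0.75. Fgfr2 also fell further than each of its neighbours, and the 3 that passed as lower all lay on the same side of it. Around the other 7 member genes the medians of the neighbours ran from −0.36 to 0.26. Beside Fgf2 lay Spry1, the third tested gene after it, with a log2 fold change of 3.20.

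**Figure D3:**
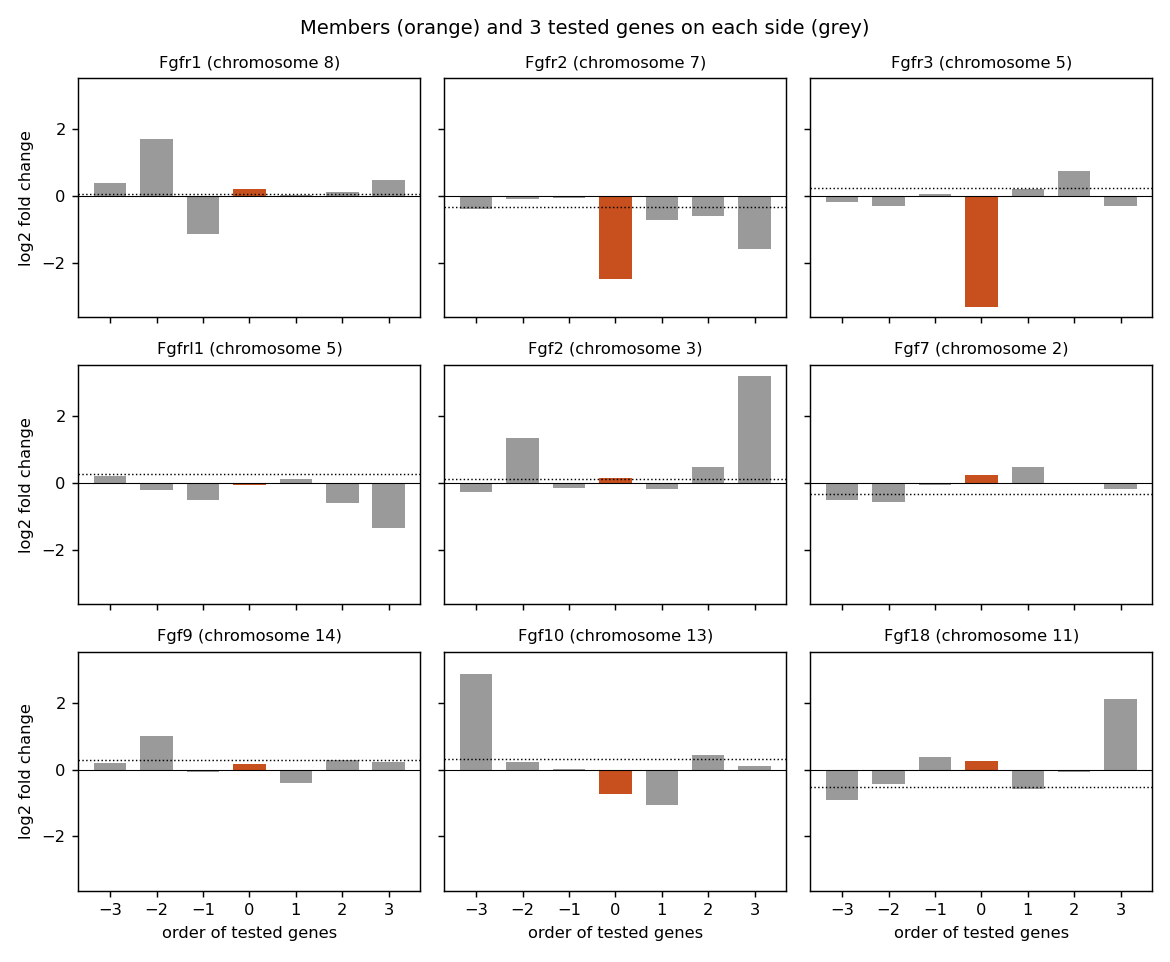
Log2 fold change (y axis) of each of 9 member genes (orange, position 0) and of the 3 nearest tested genes on each side along the chromosome (grey, x axis in gene order, not to distance), with the median of the chromosome dotted. Fgfr3 stands at −3.30 among neighbours between −0.30 and 0.75, whereas Fgfr2 at −2.49 has neighbours between −1.58 and −0.05.

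As a description of which genes behaved most like the receptors that fell, log2 signals were centred on their mean over the 6 arrays and compared by the root mean square difference, among 9652 genes with mean signals of 200 or more. For Fgfr3 the closest were Fst, which encodes the activin antagonist follistatin, at 0.10, and Pid1 and Meis2 at 0.11. The mean signal of Fst was 7073 in pRb-expressing and 658 in pRb-deficient osteoblasts. For Fgfr2 the closest were Cnrip1 and Igtp at 0.10 and Calml4 at 0.12, each lower in pRb-deficient osteoblasts with log2 fold changes of −2.45, −2.31 and −2.56.

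The other genes of the pathway were taken from 6 lists of 77 genes, of which 70 had a probe set and 65 were tested. Of these 65 genes, 12 fell, 24 rose and 29 did not pass, and their median log2 fold change was 0.12. The share of higher genes was above the 18.6% of all genes and the share of lower genes below the 23.5%, which is a description of the lists with no test.

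The feedback inhibitors restrain RAS and ERK signaling downstream of FGF receptors, and several of them are themselves induced by ERK. Of the 9 tested, 6 rose, 0 fell and 3 did not pass, with a median log2 fold change of 0.75. At an unadjusted p under 0.05 from limma 0 were lower as well. The 3 that did not pass, named here after their values were seen, were Il17rd at −0.30, Spred3 at 0.65 and Spred2 at 0.02. For Il17rd the unadjusted p from limma was 0.0518, and its pRb-deficient cultures all lay below the pRb-expressing ones. Spry1, a Sprouty protein, rose from 228 ± 14.4 to 2161 ± 627 (SD, n = 3 each), with signals of 2573.7, 2469.9 and 1439.6 in pRb-deficient osteoblasts and a log2 fold change of 3.20 (limma, adjusted p = 7.38e-05). Dusp6, a phosphatase of ERK, rose from 875 ± 113 to 2423 ± 411, a log2 fold change of 1.46. Rasa1, which turns RAS off, rose by 1.13 on the log2 scale. In all 3 genes the pRb-deficient cultures lay above the pRb-expressing ones.

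Genes whose transcription depends on ERK changed in both directions. Of the 6 tested, 4 were higher and 2 were lower. Etv4 and Etv5 encode ETS factors that are used as readouts of FGF signaling. The brightest probe set of Etv4 was below the floor in all pRb-expressing cultures and gave 312.5, 398.5 and 631.4 in pRb-deficient osteoblasts, at least 13.4-fold higher (limma, adjusted p = 9.72e-05). A second Etv4 probe set gave 7.5, 32.3 and 79.5 in pRb-expressing and 45.2, 67.0 and 104.1 in pRb-deficient osteoblasts, overlapped and did not pass (limma, log2 fold change 0.65, adjusted p = 0.325), and the mean of both was higher by 2.19 on the log2 scale. Etv5 rose from 248 ± 5.89 to 1057 ± 205 (SD, n = 3 each), a log2 fold change of 2.07 on its brightest probe set. Its other probe sets passed as higher by less, at 1.40 and 0.99. Fosl1, a subunit of AP-1, rose from 245 ± 39.9 to 2495 ± 942, a log2 fold change of 3.29. The 2 that fell, named here after their values were seen, were the collagenase gene Mmp13 at −2.12 and the cyclin gene Ccnd1 at −0.57. The fall of Fgfr2 and Fgfr3 thus stood beside higher signals of most measured feedback and ERK-dependent genes, and these genes also respond to receptors other than those of FGFs.

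Heparan sulfate proteoglycans and the enzymes that modify them carry FGFs to their receptors. Of 18 genes tested, 6 fell, 4 rose and 8 did not pass. Sulf1, a sulfatase that trims heparan sulfate outside the cell, gave 32.1, 28.4 and 34.0 in pRb-expressing and 2472.2, 2346.3 and 1795.9 in pRb-deficient osteoblasts, at least 66.8-fold higher (limma, log2 fold change 6.06, adjusted p = 2.03e-06). Its paralog Sulf2, named after its value was seen, went the other way on its brightest probe set, from 7409 ± 172 to 1588 ± 268 (SD, n = 3 each), a log2 fold change of −2.23. A second Sulf2 probe set passed at −1.81, another, with means of 459 and 454, did not (limma, adjusted p = 0.989), and the mean of all 3 was −1.35. The glypican gene Gpc6 fell from 2654 ± 115 to 679 ± 82.9, and the syndecan gene Sdc3 from 6190 ± 325 to 2219 ± 158.

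Among 14 other ligand genes tested, 12 did not pass and 2 were higher. Fgf13, which encodes a factor that stays inside the cell and does not act through FGF receptors, was on its brightest probe set below the floor in all pRb-expressing cultures and gave 439.5, 413.2 and 509.1 in pRb-deficient osteoblasts, at least 14.1-fold higher (limma, adjusted p = 1.46e-05). Its second probe set passed at a log2 fold change of 1.49, and the mean of both was 2.66. Fgf21, a hormone that needs a Klotho coreceptor, was also below the floor in pRb-expressing cultures and gave 476.2, 194.3 and 56.6 in pRb-deficient ones, at least 5.43-fold higher, and it lost its call under 7 of 19 other settings (adjusted p = 0.0324 from limma, from 0.00117 to 0.527 over these settings). Its log2 fold change of 2.44 became 1.71 without pRb-deficient culture 1 and 3.25 without pRb-deficient culture 3, and the call was lost without pRb-deficient culture 2 or any 1 of the pRb-expressing cultures. The pRb-deficient cultures thus differed widely in Fgf21 and little in Fgf13. Of 5 other receptors and coreceptors tested, Flrt1 and Flrt2, membrane proteins that bind FGF receptors, were higher, at log2 fold changes of 1.17 and 1.14. A second Flrt1 probe set did not pass, at 0.29. Their relative Flrt3 was lower at −0.96, and the other 2 genes did not pass.

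Of 13 adaptor and transducer genes tested, 6 rose, 3 fell and 4 did not pass. The largest changes among the 3 named by lowest adjusted p were in Sos2, an activator of RAS, at 1.08, and Nras at 1.05, followed by Map2k1, the kinase that activates ERK, at 0.92 on the log2 scale. In none of these 3 genes did the groups overlap on the brightest probe set, and another probe set of Nras did not pass, at 0.24.

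**Figure D4:**
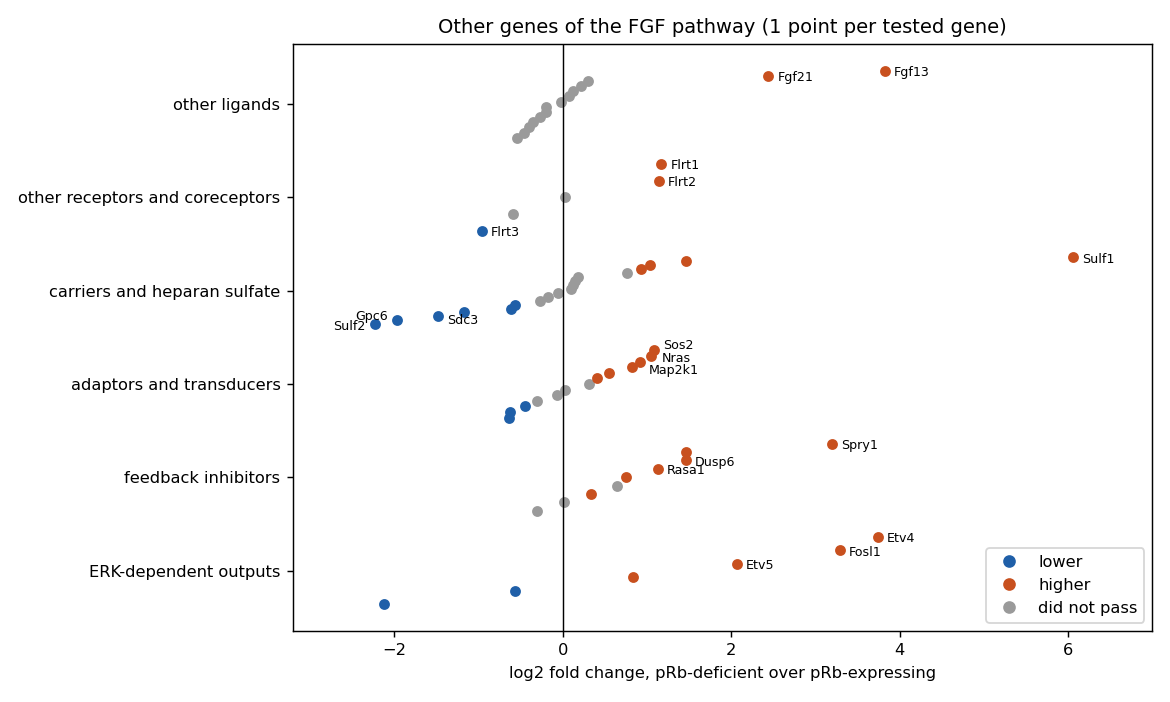
Log2 fold change (pRb-deficient over pRb-expressing, x axis) of the 65 tested genes of 6 FGF pathway lists (y axis; height within a list only spreads the points), colored by call at an adjusted p under 0.05 from limma. Feedback inhibitors hold 6 higher and 0 lower genes, and carriers hold both Sulf1 at 6.06 and Sulf2 at −2.23.

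Markers of other cell types were read beside the receptors, because Fgfr2 and Fgfr3 are expressed by several of them. For the counts below, 23.5% of all genes tested were lower and 18.6% were higher. Of 7 chondrocyte markers tested, 3 were lower and 1, Acan, was higher, and their summed signal was 3259 to 4091 in pRb-expressing and 1832 to 2762 in pRb-deficient osteoblasts. Of 7 epithelial markers 2 were lower, with a summed signal of 1220 to 1306 against 729 to 1091. Part of this lower sum came from Krt8, which passed, at 234 and 117, and part from Epcam, which did not, at 605 and 491. Both were named after their values were seen. Of 6 mesothelial markers 2 were higher and 1 was lower, with a summed signal of 385 to 438 against 1315 to 2092, which came mostly from Msln at 19.5 and 1551. Macrophage markers had 1 lower and 1 higher gene of 5, with a summed signal of 2252 to 2415 against 788 to 995. Named after their values were seen, the lower gene was Lyz2 at 1612 and 113, and the higher was Cd68 at 105 and 194. The lower sum came mostly from Lyz2. None of 5 endothelial, 4 adipocyte and 5 muscle markers passed at an adjusted, or at an unadjusted, p under 0.05 from limma. The part of these differences, and of the lower osteoblast markers, in the change of Fgfr2 and Fgfr3 was not tested.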

How the data were processed

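Total RNA of 3 pRb-expressing and 3 pRb-deficient MC3T3 cultures was labeled with biotin and hybridized by the authors, 1 Affymetrix array per culture. The values deposited by the authors are MAS5 signal intensities in linear units that they had scaled to a trimmed mean of 500 per array. The submitters' processing notes list MAS5 and Affymetrix Expression Console 1.1. The trimmed mean was checked on the values. The file holds no detection calls, so a low signal is only a bound, and 24.4% to 26.6% of probe sets per array did not exceed 32. The number of arrays limits the precision.

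Of 45037 probe sets that are no controls, 38427 were above 32 on at least 1 array and were tested. Lower signals were set to 32, and log2 signals were fitted in R 4.3.3 with limma 3.58.1 (lmFit, then eBayes with its trend option), with the group as the only term. P-values are two-sided and adjusted over all probe sets tested (Benjamini-Hochberg, threshold 0.05). The study's methods name a rank statistic judged by a permutation false discovery rate. That false discovery rate was not computed here. Complete separation of the groups, the smallest p (0.10) of an exact rank test of a single gene with 3 against 3 cultures, was an alternative. A gene is represented by its probe set with the highest mean signal unless another is named. A fold is a lower bound against the floor ("at least") where an array of the lower group did not exceed 32. The steps were tested on simulated data.

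Gene symbols came from the array's annotation table, which named a single gene for 34945 probe sets, more than 1 for 932 and no gene for 9160. RefSeq on GRCm38.p6 was used for names, chromosomes, gene order and promoter sequence only, since the study names no build. The members, the pathway lists, the marker lists and the tests were chosen with earlier results of these data known. Named were all members, the 3 genes of each pathway list with the lowest adjusted p among those that passed, Rb1, the nearest neighbours and the 3 most similar genes of each receptor that passed, and others are said to have been chosen after their values were seen. Some genes of the lists are not reported here.

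Replicate numbers were not taken as pairs, because the deviations of same-numbered arrays from their group means correlated at only 0.02, −0.03 and 0.06. Alternatives were other floors, a pseudocount, other filters, quantile normalization, median centring, removal of chromosome medians, no intensity trend, array quality weights, the replicate block, a minimum change of 2-fold, separation of the groups, the mean of all probe sets of a gene, and leaving out each array.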

Additional observations from a re-analysis of the deposited data

How the results depend on the processing

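Fgfr2 and Fgfr3 were lower under all 19 alternatives, with log2 fold changes of −2.73 to −2.16 for Fgfr2 (adjusted p from 8.94e-06 to 0.00746, limma) and −3.56 to −2.79 for Fgfr3 (3.92e-08 to 9.72e-05), so the 2 lower member genes kept their call. Through Fgf10, the lower member genes became 3 with chromosome medians removed, with array quality weights or without pRb-deficient culture 1. The lower member probe sets became 6 under the same settings, and 4 with a minimum change of 2-fold. The number of higher member genes was 0, but 2 with chromosome medians removed, 4 with array quality weights, and 0 to 1 when each array was left out. Chromosome medians were removed after flooring, so the floored pRb-deficient arrays of Fgf10 and Fgf18, which passed under that setting, were shifted as well. The number of higher member probe sets was 1, but 3 with chromosome medians removed and 5 with array quality weights. It was 0 with the replicate block, no filter, quantile normalization, no intensity trend or a minimum change of 2-fold, and 0 to 2 when each array was left out (0 without pRb-expressing 2, pRb-expressing 3 or pRb-deficient 2, and 2 without pRb-deficient 3). The replicate block changed no other call of a member. With a minimum change of 2-fold, 4 pathway genes were lower and 6 higher, in place of 12 and 24, and over all probe sets tested 811 were lower and 988 higher, in place of 7220 and 6213. Median centring gave 6300 lower and 6730 higher probe sets, and removal of chromosome medians 6012 and 6510. Array quality weights gave 10720 lower and 8609 higher, so under that setting more probe sets passed over the whole array and not only among the members. Values near 0 that did not pass changed sign: Fgfrl1 was 0.01 with median centring, 0.14 with array quality weights and −0.17 to 0.02 when each array was left out, Fgf2 was −0.03 to 0.34 when each array was left out, and Fgf9 was −0.02 with a floor of 100, −0.11 with chromosome medians removed and 0 to 0.35 when each array was left out. Folds against the floor moved with it: at a floor of 100 the log2 fold change was 2.18 for Fgf13, 1.07 for Fgf21 (not passed), 4.45 for Sulf1 and 2.10 for Etv4. The cause was not tested. Signals near the floor limit Fgf2, Fgf9, Fgf10 and Fgf18, for which only changes larger than their intervals could be seen.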
